A study of Mus musculus with 8 samples.

Results

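RNA-seq counts were examined for 10 imprinted growth genes that lie outside the Dlk1-Meg3 cluster, H19, Igf2, Igf2r, Peg3, Grb10, Ndn, Impact, Plagl1, Mest and Gnas. The genes were chosen by symbol, with earlier results of these data known. All 10 had a row among the 22065 named genes of the count table, and 8 of them were among the 16444 genes with enough counts to be tested. Igf2 and Plagl1 had too few. Between MitolΔ/Δ and control hematopoietic stem cells (HSCs), edgeR called 0 of the 8 at an adjusted p of 0.05, beside 8.43% of all tested genes.

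MitolΔ/Δ HSCs came from Mitol Flox/Flox mice with MX1-cre that were injected with Poly:IC, a synthetic double-stranded RNA that induces interferon and so the Mx1 promoter. Control HSCs came from Mitol Flox/Flox littermates without MX1-cre that received Poly:IC as well, so both groups carried the floxed allele and the injection. All mice were C57BL/6 and 8 to 10 weeks old, and HSCs (CD150+ CD48- EPCR+ Lineage- bone marrow cells) were sequenced 1 week after Poly:IC as 4 libraries per group of 100 sorted cells each. MX1-cre acts throughout the hematopoietic system and in other interferon-responsive cells, so deletion was not limited to HSCs, and control mice did not carry the recombinase. The sources used here do not say whether each library came from a separate mouse, so p-values measure the spread between these libraries.

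An imprinted gene is transcribed mainly from the copy inherited from 1 parent, because a DNA methylation mark laid down in the egg or the sperm is kept through every later cell division. Several such genes set the growth of the embryo and placenta. Igf2, Plagl1, Peg3, Mest, Ndn and Impact are transcribed from the paternal copy, and H19, Igf2r and in most tissues Grb10 from the maternal copy. Gnas makes several transcripts with different parental origins. In adult bone marrow, the H19-Igf2 domain is known for its link to the quiescence of long-term HSCs. Counts per gene do not separate the parental copies, so imprinting itself was not measured.

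Positions are on GRCm39. H19 (chr7:142129262-142133957, minus strand) and Igf2 (chr7:142204503-142220694, minus strand) share a domain. Peg3 (chr7:6706882-6733468, minus strand) and Ndn (chr7:61995473-62000010, plus strand) lie on the same chromosome. Igf2r is at chr17:12901293-12988614 on the minus strand, Grb10 at chr11:11880498-11988683 on the minus strand, Mest at chr6:30723546-30752058 on the plus strand, Gnas at chr2:174126022-174188537 on the plus strand and Plagl1 at chr10:12936248-13007438 on the plus strand. Exons of other genes covered 65.5% of the Igf2 exon bases, 47.7% of those of Mest, 9.26% of those of Gnas, 7.90% of those of H19 and 0.444% of those of Plagl1. For the other 5 members the share was 0%. In Igf2 the gene Gm49394 shares 3599 exon bases on the same strand, and in Mest the gene Copg2 shares 3850 exon bases on the opposite strand. The library kit does not mark strand, so reads from such shared bases cannot be assigned to 1 gene, and the counts of Igf2 and Mest are uncertain for that reason.

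The CpG dinucleotides that carry methylation marks are unevenly spread over the start sites of these genes. RefSeq windows of 300 bases on GRCm38.p6, from 250 bases before to 50 bases after a start site, were used for 8 members. This gave 17 windows, with any on the chromosome of Impact left out. The median CpG count of the 17 was 17 and their median GC content 62.7%, beside 7 and 52.7% over all 32851 windows of the table. The 250 bases before the start are shown for 1 window each of 4 members, from CpG-dense to CpG-poor, with every CG in capitals. Those not shown include an Igf2 window with 1 CG and another Grb10 window with 8, so the full range is not covered. Grb10 (chr11:12037421-12037670, minus strand) held 40 CG, Igf2r (chr17:12769707-12769956, minus strand) 27, Peg3 (chr7:6730420-6730669, minus strand) 8 and Ndn (chr7:62348027-62348276, plus strand) 5.
Grb10: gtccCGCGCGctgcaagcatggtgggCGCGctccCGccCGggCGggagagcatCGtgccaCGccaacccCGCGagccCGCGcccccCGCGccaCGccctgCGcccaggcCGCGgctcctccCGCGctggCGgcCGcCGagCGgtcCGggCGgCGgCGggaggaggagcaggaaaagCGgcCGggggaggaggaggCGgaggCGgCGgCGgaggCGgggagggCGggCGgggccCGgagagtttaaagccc
Igf2r: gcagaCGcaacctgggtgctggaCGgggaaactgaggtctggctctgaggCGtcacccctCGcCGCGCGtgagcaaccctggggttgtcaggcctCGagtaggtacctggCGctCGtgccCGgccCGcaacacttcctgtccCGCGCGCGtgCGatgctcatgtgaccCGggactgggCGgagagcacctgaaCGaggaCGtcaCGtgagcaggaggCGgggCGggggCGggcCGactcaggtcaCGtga
Peg3: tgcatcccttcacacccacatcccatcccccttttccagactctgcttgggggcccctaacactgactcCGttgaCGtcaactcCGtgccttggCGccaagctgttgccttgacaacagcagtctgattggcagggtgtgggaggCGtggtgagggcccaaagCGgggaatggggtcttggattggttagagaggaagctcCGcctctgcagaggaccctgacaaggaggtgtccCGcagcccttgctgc
Ndn: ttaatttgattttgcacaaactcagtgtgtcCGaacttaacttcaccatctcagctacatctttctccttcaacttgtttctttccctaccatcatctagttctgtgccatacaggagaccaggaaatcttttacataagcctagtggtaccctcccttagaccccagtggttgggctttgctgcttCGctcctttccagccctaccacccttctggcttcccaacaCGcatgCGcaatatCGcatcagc

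These windows were also read on both strands for 3 motifs. TGCCGC, the methylated hexamer read by the imprint keeper ZFP57, was in 5 of the 17 windows, from 4 members (Mest, Igf2, Plagl1 and Grb10), and in 11.6% of all windows. Of those 5 windows, 2 belong to Mest and overlap each other. GGGGCCCC, an element bound by PLAGL1, was in 1 window, that of Peg3, and in 1.08% of all windows. GCCATNTT, the core of the YY1 motif, was in 0 of the 17 windows and in 6.05% of all windows. A match is a run of letters and not a measured binding site.

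H19 RNA also hosts a miRNA precursor, Mir675, whose mature products were not measured in these libraries. They are shown with the seed (bases 2 to 8) in capitals because H19 encodes no protein and these are its known short products.
miR-675-5p: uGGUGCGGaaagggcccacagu
miR-675-3p: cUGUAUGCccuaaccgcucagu

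Libraries held between 7214935 and 12398138 counts on named genes. All 10 markers of HSCs were detected and summed to between 25390 and 29460 normalized counts (counts divided by DESeq2 size factors) in MitolΔ/Δ libraries and between 37390 and 44490 in control libraries. Of these, 3 were lower in MitolΔ/Δ HSCs, Kit and Hlf among them, and the other 7 were not past the threshold. The targeted gene Marchf5, which encodes MITOL, had 276, 232, 308 and 281 normalized counts in MitolΔ/Δ libraries 1 to 4 and 299, 312, 333 and 262 in control libraries 1 to 4 (edgeR, log2 fold change -0.15, standard error 0.13, adjusted p = 0.498). Counts over the whole gene do not separate deleted from remaining exons, so they do not check the labels. Proliferation genes summed to between 12770 and 27090 in MitolΔ/Δ and between 8133 and 11910 in control libraries, and 13 of 16 were higher in MitolΔ/Δ HSCs. The 8 neutrophil genes with a row had sums from 20.1 to 37.5 in MitolΔ/Δ and from 52.8 to 96.1 in control libraries, without overlap. By group mean in MitolΔ/Δ and control libraries, S100a8 (0.391 and 25.7) differed most. S100a9 was at 0 in the MitolΔ/Δ libraries and ran from 2.64 to 21.3 in control libraries. Ltf (5.3 and 2.1) and Ngp (10.9 and 10.6) had higher means in MitolΔ/Δ libraries, and the other genes had lower means. With 1 of these 8 genes tested, a count of calls says little. In the 8 macrophage genes the sums ran from 364 to 574 and from 218 to 352, without overlap, and 0 of 7 tested genes were called by edgeR (2 at an unadjusted p under 0.05). Red-cell genes ran from 968 to 4754 and from 370 to 794, and 1 of 3 tested genes, Hbb-bt, was higher. Stromal genes ran from 182 to 387 and from 218 to 488, B-cell genes from 137 to 150 and from 146 to 204, T-cell genes from 189 to 259 and from 172 to 201, and mast cell and basophil genes from 7.32 to 13.8 and from 11.3 to 21.1. In these lists 3, 1, 2 and 1 genes were tested, too few for a count of calls. Endothelial genes, of which HSCs also express Tie1 and Vwf, ran from 6607 to 8480 and from 7612 to 9614, with Tie1 lower. Megakaryocyte genes ran from 662 to 3532 and from 1203 to 1906, and the list did not move in 1 direction. MitolΔ/Δ libraries 1 and 2 (662 and 735) were below every control library, and libraries 3 and 4 (2420 and 3532) were above every one. Of 5 tested genes, Pf4 was called lower. The log2 fold change was above 0 in 2, Itga2b (0.49) and Itgb3 (0.27), which edgeR did not call. The part of these markers in the results on the members was not tested.

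Per kb of exon, a scale that allows for unequal gene lengths, the members covered a wide range in control HSCs. Lengths are the union of all annotated exons, of which other genes cover 65.5% in Igf2, 47.7% in Mest and 9.26% in Gnas. The places of these 3 genes in the order are therefore less certain. Grb10 stood at 293 ± 63.3 normalized counts per kb (SD, n = 4), above Impact at 111 ± 9.47, Igf2r at 101 ± 33.3 and Ndn at 86.4 ± 5.82. H19 followed at 13.6 ± 8.49, with Gnas at 11.7 ± 2.71, Mest at 7.81 ± 2.01 and Peg3 at 4.59 ± 1.59. The lowest were Plagl1 at 0.761 ± 0.683 and Igf2 at 0.533 ± 0.135. The median tested gene stood at 43.3 per kb, so 4 members lay above it and 6 below. In this order the control libraries of Grb10, Ndn and Peg3 did not overlap those of the next gene, whereas each other neighbouring pair overlapped. Ndn, with 5 CG in its printed window, stood within the range of the control libraries of Igf2r, with 27.

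**Figure D1:**
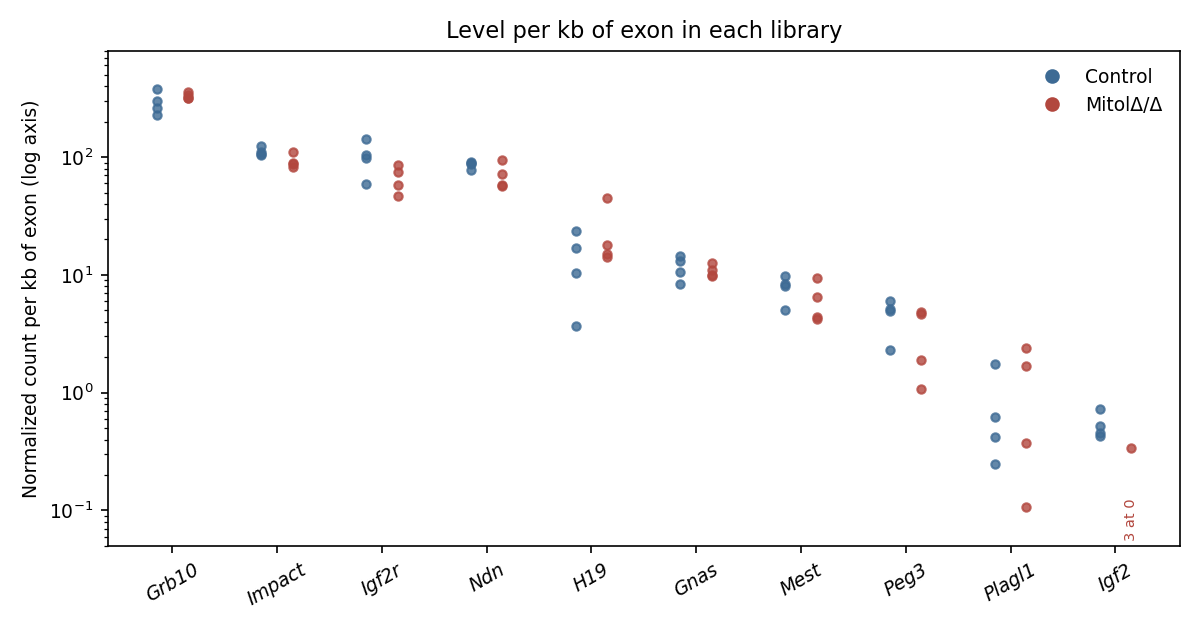
Level per kb of exon of the 10 members, as normalized counts per kb on a log axis, with 1 point per library for control (blue) and MitolΔ/Δ HSCs (red). Grb10 stood highest, at 293 per kb in control HSCs, and Igf2 lowest, with 3 MitolΔ/Δ libraries at 0.

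The comparison of MitolΔ/Δ with control HSCs asked whether any member changed with the deletion. By the edgeR quasi-likelihood test with Benjamini-Hochberg adjusted p-values, 1386 of 16444 genes were past the threshold of 0.05, which is 8.43% of all tested genes (4.68% higher and 3.75% lower in MitolΔ/Δ HSCs), and 0 of the 8 tested members were. At an unadjusted p-value under 0.05 there were 2 of 8 members, Igf2r and Impact, beside 26.4% of all tested genes. DESeq2, limma-voom and the fit with the replicate number as a block also called 0 members. The log2 fold change was above 0 in 2 of the 8, H19 and Grb10, and below 0 in 6. The median over the 8 was -0.30, beside -0.02 over all tested genes. The groups overlapped in all 8, where 15.4% of all tested genes had groups that did not overlap (8.17% higher and 7.18% lower in MitolΔ/Δ HSCs).

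**Figure D2:**
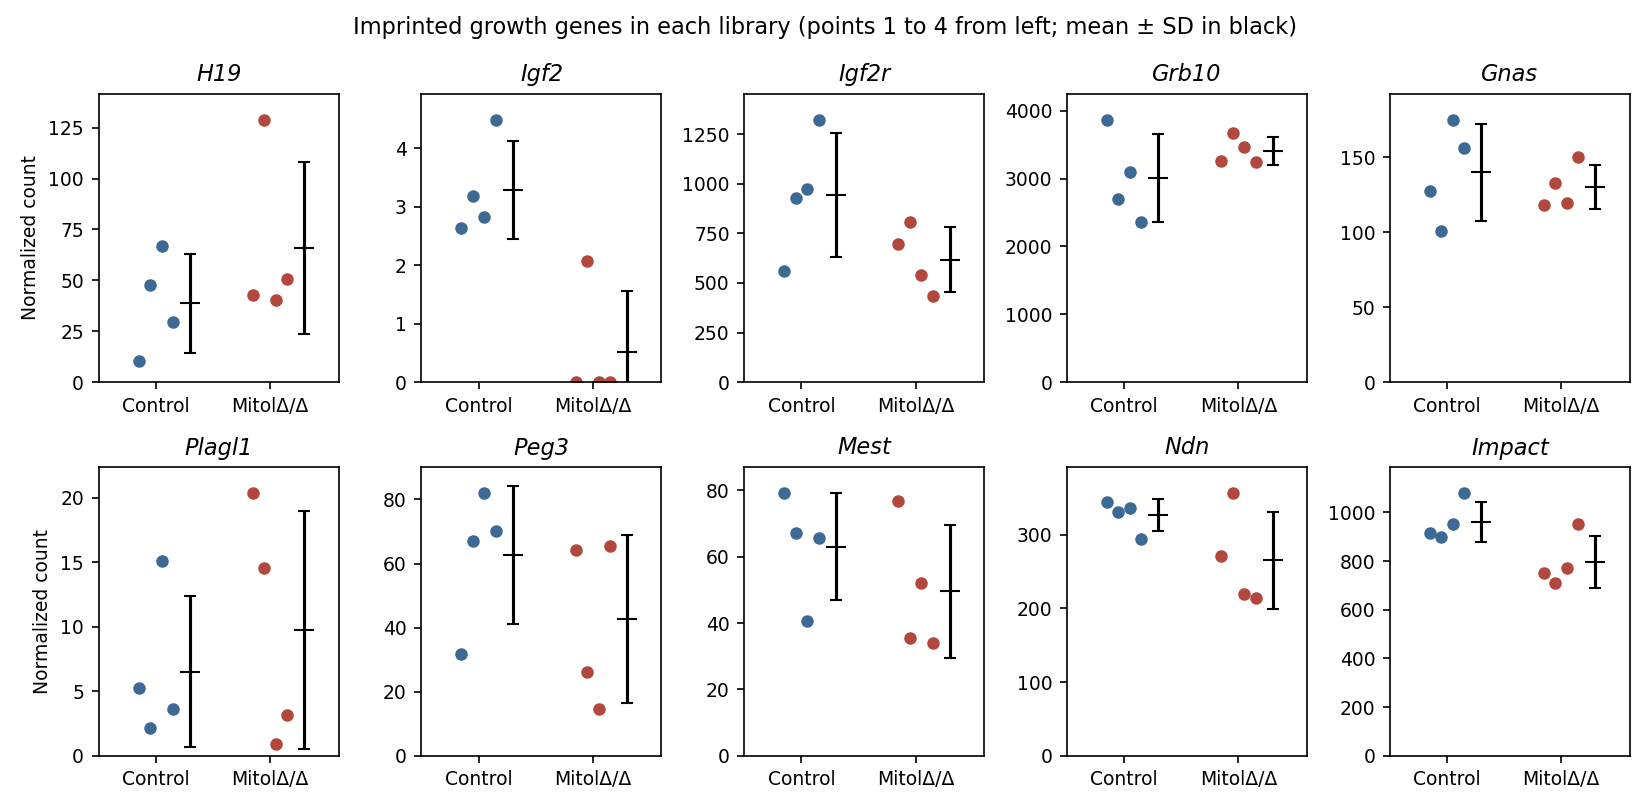
Normalized counts of each member in the 4 control (blue) and 4 MitolΔ/Δ (red) libraries, with points for libraries 1 to 4 from left to right and the mean ± SD in black. The groups overlapped in each panel but that of Igf2, which rests on 0 to 5 counts per library.

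The members of the IGF2 axis are described together. Igf2, a fetal growth factor that signals through the IGF1 and insulin receptors, had 0, 2, 0 and 0 counts in MitolΔ/Δ libraries 1 to 4 and 2, 3, 3 and 5 in control libraries 1 to 4. Normalized for depth these were 0, 2.08, 0 and 0 against 2.64, 3.19, 2.83 and 4.49, so every MitolΔ/Δ library was below every control library (2-sided exact permutation test, p = 0.0286, the smallest that 70 arrangements allow), as in 7.18% of all tested genes. The raw count of MitolΔ/Δ library 2 equalled that of control library 1. Over the groups there were 2 against 13 counts, a depth-adjusted ratio of 0.139 with a counting interval from 0.0153 to 0.615, and the interval covers counting error only. Without the filter on low counts, edgeR gave a log2 fold change of -2.49 with an adjusted p of 0.241, so Igf2 was not called. The neighbour Gm49394, which shares most of the Igf2 exon bases, has no row in the table.

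Igf2r encodes the receptor that takes up IGF2 and delivers it to the lysosome, and so lowers IGF2 levels. Libraries 1 to 4 of MitolΔ/Δ HSCs had 694, 805, 538 and 435 normalized counts of Igf2r and control libraries 1 to 4 had 559, 927, 974 and 1323. Libraries 3 and 4 of MitolΔ/Δ HSCs were below every control library, and control library 1 was below MitolΔ/Δ libraries 1 and 2. The means were 618 ± 164 and 946 ± 312 (SD, n = 4). This was a log2 fold change of -0.64 with a standard error of 0.23 and a 95% interval from -1.15 to -0.13 (edgeR, adjusted p = 0.110), and the 2-sided exact permutation test gave p = 0.114. Without control library 1 the log2 fold change was -0.80 and Igf2r was past the threshold (edgeR, adjusted p = 0.0380). Airn is the noncoding RNA transcribed from the paternal copy across the Igf2r promoter in the opposite direction. It shares 0 exon bases with Igf2r but overlaps the gene. The strand was not kept, so reads from RNA that still holds introns may not be separable there. The counts of Airn and Igf2r may therefore not be independent. Airn had 122, 151, 105 and 42.3 normalized counts in MitolΔ/Δ libraries and 108, 144, 188 and 454 in control libraries. Its log2 fold change was -1.11 (edgeR, standard error 0.44, adjusted p = 0.129). Without control library 4 it was -0.50.

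H19, a maternally transcribed noncoding RNA, varied most among the tested members. Its normalized counts were 43.1, 129, 40.3 and 50.8 in MitolΔ/Δ libraries 1 to 4 and 10.6, 47.9, 66.9 and 29.6 in control libraries 1 to 4. MitolΔ/Δ library 2 was above every other library and control library 1 was below every other library. The coefficient of variation was 64.4% in MitolΔ/Δ and 62.4% in control HSCs. The log2 fold change was 0.72 with a standard error of 0.50 and a 95% interval from -0.36 to 1.79 (edgeR, adjusted p = 0.387). Without MitolΔ/Δ library 2 it was 0.18 (edgeR, adjusted p = 0.865), without control library 1 it was 0.44, and without control library 3 it was 1.12 (edgeR, adjusted p = 0.230).

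Among the adaptors of growth signals, Grb10 was the most abundant member. GRB10 binds the insulin and IGF1 receptors and dampens their signal. Normalized counts of Grb10 were 3260, 3670, 3463 and 3238 in MitolΔ/Δ libraries 1 to 4 and 3867, 2696, 3091 and 2358 in control libraries 1 to 4. The 4 MitolΔ/Δ libraries lay within the range of the control libraries. With means of 3408 ± 202 and 3003 ± 649 (SD, n = 4), the log2 fold change was 0.17, with a standard error of 0.13 and a 95% interval from -0.12 to 0.45 (edgeR, adjusted p = 0.447). It was 0.07 without control library 4 and 0.32 without control library 1. The gene held 63.3% of all member counts in MitolΔ/Δ and 54.1% in control HSCs.

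Gnas encodes the stimulatory G protein subunit that couples receptors to adenylyl cyclase. Normalized counts of Gnas were 118, 133, 120 and 150 in MitolΔ/Δ libraries 1 to 4 and 128, 101, 175 and 156 in control libraries 1 to 4. All MitolΔ/Δ libraries again lay within the control range, with a log2 fold change of -0.13, a standard error of 0.20 and a 95% interval from -0.55 to 0.30 (edgeR, adjusted p = 0.721). Without control library 3 it was -0.00044 and without control library 2 it was -0.26, so the direction for Gnas rests on single libraries. The antisense gene Gnasas1 shares 1112 exon bases with Gnas on the other strand. It had 131 ± 36.0 and 112 ± 53.6 normalized counts (SD, n = 4), with a log2 fold change of 0.22 (edgeR, adjusted p = 0.718).

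Of the paternally transcribed members, Impact was expressed at the highest level. The gene lies at chr18:13088909-13126012 of GRCm39 on the plus strand, and IMPACT restrains the amino acid sensor GCN2. Normalized counts of Impact were 752, 711, 772 and 954 in MitolΔ/Δ libraries 1 to 4 and 914, 899, 951 and 1079 in control libraries 1 to 4. Libraries 1 to 3 of MitolΔ/Δ HSCs were below every control library, and library 4 was above 3 of them. The means were 797 ± 108 and 961 ± 82.0 (SD, n = 4). This was a log2 fold change of -0.29 with a standard error of 0.11 and a 95% interval from -0.53 to -0.05 (edgeR, adjusted p = 0.125), and the 2-sided exact permutation test gave p = 0.114. Without MitolΔ/Δ library 4 the log2 fold change was -0.37 and Impact was past the threshold (edgeR, adjusted p = 0.0304).

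Ndn encodes necdin, a MAGE family protein that restrains the cell cycle and is known for HSC quiescence. Its normalized counts were 271, 356, 220 and 214 in MitolΔ/Δ libraries 1 to 4 and 344, 331, 336 and 295 in control libraries 1 to 4. MitolΔ/Δ libraries 1, 3 and 4 were below every control library and library 2 was above every one. The control libraries were close together, with a coefficient of variation of 6.73% beside 24.9% in MitolΔ/Δ HSCs. The log2 fold change was -0.32 with a standard error of 0.16 and a 95% interval from -0.67 to 0.03 (edgeR, adjusted p = 0.229). Without MitolΔ/Δ library 2 it was -0.49 (edgeR, adjusted p = 0.0808), and without MitolΔ/Δ library 4 it was -0.21.

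Peg3 encodes a large zinc finger protein. Its normalized counts were 64.2, 26.0, 14.7 and 65.6 in MitolΔ/Δ libraries 1 to 4 and 31.7, 67.0, 82.0 and 70.1 in control libraries 1 to 4. Libraries 2 and 3 of MitolΔ/Δ HSCs were below every control library, and libraries 1 and 4 were near the control mean of 62.7. The log2 fold change was -0.58 with a standard error of 0.44 and a 95% interval from -1.54 to 0.37 (edgeR, adjusted p = 0.431), and it was -0.28 without MitolΔ/Δ library 3. Mest encodes a hydrolase-like enzyme of the endoplasmic reticulum, and its normalized counts were 76.7, 35.3, 52.2 and 33.9 in MitolΔ/Δ libraries 1 to 4 and 79.1, 67.0, 40.5 and 65.6 in control libraries 1 to 4. Its log2 fold change was -0.35 with a standard error of 0.31 (edgeR, adjusted p = 0.513), and it ran from -0.64 without MitolΔ/Δ library 1 to -0.19 without MitolΔ/Δ library 4. The opposite-strand gene Copg2 had 559 ± 92.4 and 547 ± 66.0 normalized counts (SD, n = 4), more than Mest itself.

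Plagl1 encodes a zinc finger transcription factor that regulates other imprinted genes. It had 26, 14, 1 and 3 counts in MitolΔ/Δ libraries 1 to 4 and 4, 2, 16 and 4 in control libraries 1 to 4. The libraries of both groups mixed, with normalized counts from 0.915 to 20.4 in MitolΔ/Δ and from 2.13 to 15.1 in the controls (exact permutation, 2-sided p = 0.657). Without the filter on low counts the log2 fold change was 0.58 with a standard error of 0.84 (edgeR, adjusted p = 0.744).

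**Figure D3:**
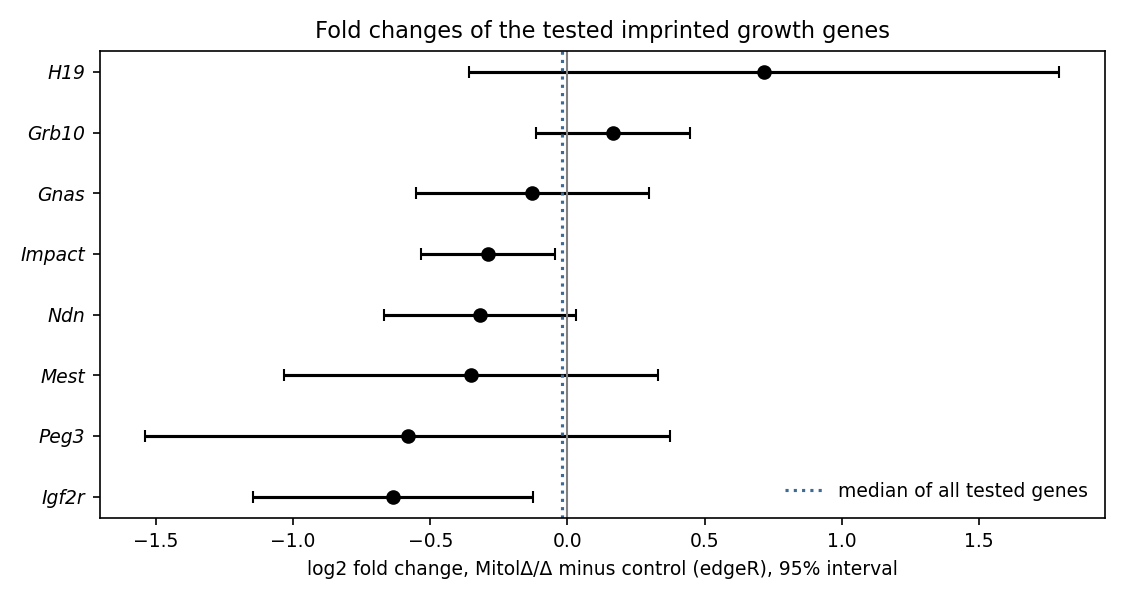
Log2 fold change of the 8 tested members (MitolΔ/Δ minus control, edgeR) with 95% intervals, and the median of all tested genes as a dotted line at -0.02. The unadjusted intervals of Igf2r and Impact lie below 0, and those of the other 6 include 0.

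**Figure D4:**
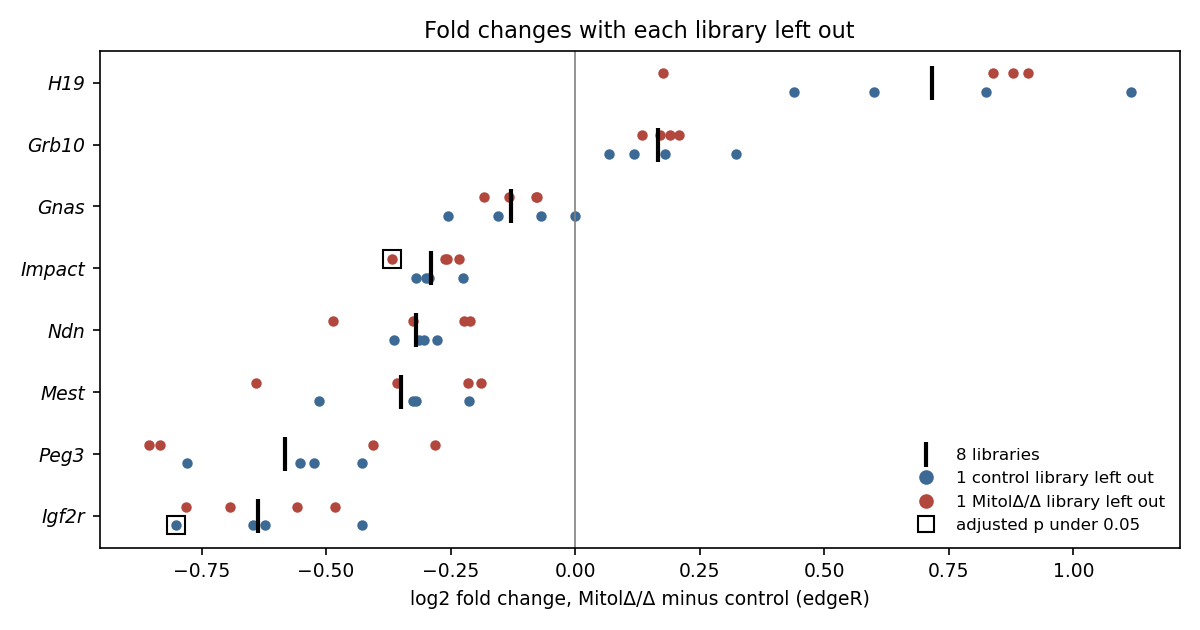
Log2 fold change of each tested member over all 8 libraries (black bar) and after leaving out 1 control (blue) or 1 MitolΔ/Δ (red) library, with squares where the adjusted p-value was under 0.05. There were 2 squares, for Igf2r without control library 1 and for Impact without MitolΔ/Δ library 4, and the H19 value fell to 0.18 without MitolΔ/Δ library 2.

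The genes whose levels over the 8 libraries were most like those of a member were found by the root mean square difference of centred log2 values among 12012 genes with at least 50 mean normalized counts. For H19 they were Gm45804 at 0.50, Gen1 at 0.57 and Endod1 at 0.59. For Igf2r they were Crispld1, Gm45360 and Gas2, each at 0.18. The distances for H19 were larger than those for Igf2r.

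Other imprinted genes, named by a list, were read beside the members. Of 37 with a row, 32 were tested, and 5 were lower and 0 higher in MitolΔ/Δ HSCs, which is 15.6% of those tested beside 8.43% of all genes and 3.75% of all genes in the lower direction. Their median log2 fold change was -0.25, and 9 of 32 were above 0. Cdkn1c, which encodes the cell cycle inhibitor p57, had 73.6, 87.3, 50.4 and 60.3 normalized counts in MitolΔ/Δ libraries and 127, 112, 112 and 159 in control libraries. The groups did not overlap, and the log2 fold change was -0.93 with a standard error of 0.22 (edgeR, adjusted p = 0.0265). With 1 library left out the log2 fold change lay between -1.06 and -0.79, and the call held in 4 of 8 fits.

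Ppp1r9a, an actin and phosphatase binding protein, had 1774, 1787, 1805 and 1754 normalized counts in MitolΔ/Δ libraries and 2533, 2116, 2286 and 2475 in control libraries. Its log2 fold change of -0.42 (edgeR, standard error 0.08, adjusted p = 0.0149) was called in 8 of 8 such fits. Trappc9 (-0.39, adjusted p = 0.0226 by edgeR) and Peg13, a noncoding RNA within it (-0.52, adjusted p = 0.0392 by edgeR), were called in 3 and 1 of those fits, with log2 fold changes from -0.44 to -0.35 and from -0.67 to -0.43. Sfmbt2, a Polycomb protein, had a log2 fold change of -0.87 (edgeR, adjusted p = 0.0353), from -0.97 to -0.68 over those fits, with the call in 2 of the 8. Reads from Peg13 and Trappc9 may not be separable, since the strand was not kept. In bulk samples, fewer cells of a type and less RNA per cell cannot be told apart, and the HSC marker sums above were lower in the same libraries. Their part in these results was not tested.

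In the Dlk1-Meg3 cluster, which the members exclude, Dlk1 had 84.5, 213, 773 and 3132 normalized counts in MitolΔ/Δ libraries and 55.4, 45.8, 53.7 and 101 in control libraries (edgeR, log2 fold change 4.00, adjusted p = 0.0241). The other 4 tested genes of the cluster, Meg3, Rtl1, Rian and Mirg, were not called (edgeR, adjusted p from 0.0978 to 0.177), and in each of them MitolΔ/Δ library 1 lay below every control library. Dlk1 was highest in MitolΔ/Δ library 4, whereas H19 was highest in MitolΔ/Δ library 2.

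Genes that work with IGF2 and its receptors were read from a list. Of 22 tested genes of IGF and insulin signalling, 2 were lower and 0 higher in MitolΔ/Δ HSCs, 9.09% beside the 8.43% of all genes, and the median log2 fold change was -0.04. These include Igf2bp2, an RNA-binding protein that holds IGF2 mRNA among its targets (263 ± 75.4 against 477 ± 55.3 normalized counts, SD, n = 4, log2 fold change -0.88, edgeR, adjusted p = 0.0170). With 1 library left out, the call of Igf2bp2 held in 6 of 8 fits.

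The receptors that IGF2 signals through were expressed in all libraries. Igf1r, the IGF1 receptor, had 4348, 4532, 4546 and 5989 normalized counts in MitolΔ/Δ libraries and 5465, 6079, 5153 and 5250 in control libraries (edgeR, log2 fold change -0.19, adjusted p = 0.276). Insr, the insulin receptor, had 1636 ± 232 and 2050 ± 150 (SD, n = 4, edgeR, log2 fold change -0.34, adjusted p = 0.0673), and DESeq2 called it (adjusted p = 0.0453). The ligand Igf1 stood at 88.9 ± 23.4 and 121 ± 49.3 (SD, n = 4, edgeR, log2 fold change -0.46, adjusted p = 0.317), and its log2 fold change was -0.15 without control library 2.

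Among 29 tested genes of Gs signalling, downstream and around Gnas, 2 were lower and 0 higher, 6.90% beside 8.43% of all genes. Adcy9, an adenylyl cyclase, had 648, 741, 664 and 727 normalized counts in MitolΔ/Δ libraries and 1021, 1015, 853 and 1213 in control libraries, so the groups did not overlap (edgeR, log2 fold change -0.58, adjusted p = 0.0148). The call held in 8 of 8 fits with 1 library left out. Gng12, a G protein gamma subunit, had a log2 fold change of -0.46 (edgeR, adjusted p = 0.0360), from -0.54 to -0.42 over those fits, with the call in 2 of 8.

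Genes that act on imprint marks were called in both directions. The list holds factors that keep or read the marks, and also Tet1, Tet2 and Tet3, whose products oxidize methylcytosine. Of 20 tested, 3 were higher and 2 lower in MitolΔ/Δ HSCs, 25.0% beside 8.43% of all genes, and the median log2 fold change was 0.12. Dnmt1, the maintenance DNA methyltransferase, had 8908, 8887, 5979 and 4270 normalized counts in MitolΔ/Δ libraries and 4944, 3870, 4196 and 3143 in control libraries (edgeR, log2 fold change 0.78, adjusted p = 0.0397). Uhrf1, which brings DNMT1 to newly copied DNA, had 4748, 4715, 2645 and 1664 in MitolΔ/Δ libraries and 2060, 1862, 1456 and 894 in control libraries (edgeR, log2 fold change 1.12, adjusted p = 0.0464). DESeq2 did not call Uhrf1 (adjusted p = 0.0543).

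Cbx5, a heterochromatin protein, was higher by 0.76 (edgeR, adjusted p = 0.0270), while Arid4a, a chromatin binding protein, fell by 0.53 on the log2 scale (edgeR, adjusted p = 0.0358) and Tet3, an enzyme that oxidizes methylcytosine, fell by 0.31 (edgeR, adjusted p = 0.0409). With 1 library left out, each of these 5 calls held in 1 to 3 of 8 fits. The proliferation sums were 26650, 27090, 19050 and 12770 in MitolΔ/Δ libraries 1 to 4, so libraries 1 and 2 were highest in both these sums and in Dnmt1 and Uhrf1. The part of proliferation in the results on Dnmt1 and Uhrf1 was not tested. The imprint readers Zfp57 (51.3 and 58.5 normalized counts, log2 fold change -0.21, edgeR, adjusted p = 0.686) and Trim28 (8069 and 6051, log2 fold change 0.40, edgeR, adjusted p = 0.0697) were not past the threshold.

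**Figure D5:**
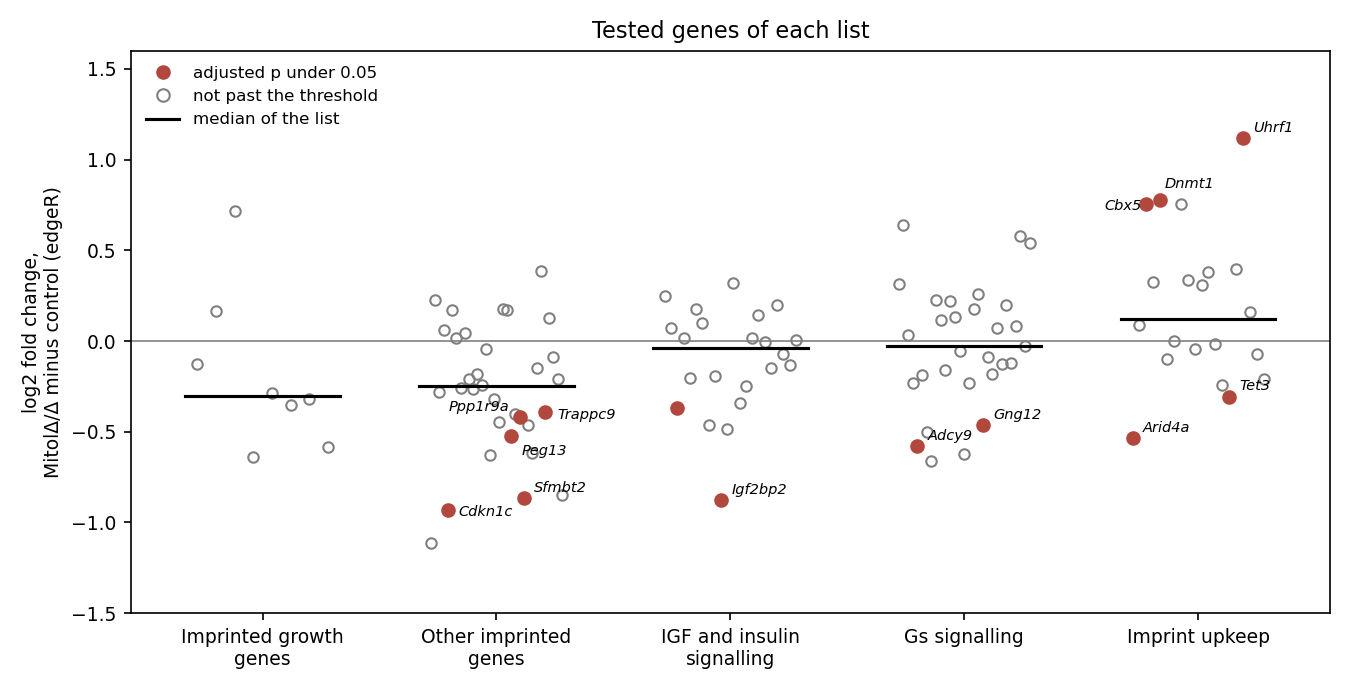
Log2 fold change (MitolΔ/Δ minus control, edgeR) of every tested gene of the members and of 4 related lists, with filled points for an adjusted p-value under 0.05, most of them named, and a bar at each list's median. None of the 8 members is filled, 5 of 32 other imprinted genes are filled below 0, and imprint upkeep has 3 filled above and 2 below 0.

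Genes whose start site lies within 250 kb of that of a member on GRCm39 numbered 175, of which 54 had a row and 40 were tested. Of these, 3 were higher and 5 lower, 20% beside 8.43% of all genes, with a median log2 fold change of -0.01 and 20 of 40 above 0. Around H19 and Igf2, Prr33 (-1.08, edgeR, adjusted p = 0.00963) and Tnnt3, a muscle troponin (-1.87, edgeR, adjusted p = 0.0260), were lower, where Tnnt3 had 3.12 to 14.8 normalized counts in MitolΔ/Δ and 30.3 to 46.7 in control libraries. Near Gnas, Tubb1, the platelet tubulin, was lower (0.783 to 5.20 against 11.3 to 33.2 normalized counts, edgeR, adjusted p = 0.0127) and Prelid3b was higher (0.80, edgeR, adjusted p = 0.0349). Tcp1, a chaperonin subunit near Igf2r, was higher (0.45, edgeR, adjusted p = 0.0253), as was Fignl1, a repair factor near Grb10 (1.07, edgeR, adjusted p = 0.0469). Utrn, the dystrophin relative near Plagl1, was lower (-0.36, edgeR, adjusted p = 0.0201), as was Gm9801 near Ndn (0.783 to 9.35 against 13.2 to 35.1 normalized counts, edgeR, adjusted p = 0.0312). Tubb1, Gm9801 and Tnnt3 passed the filter on low counts only through the control libraries, where they are high. That these genes were tested was thus set by the group where they are high, and the share of 20% includes them. Without that filter, edgeR called 8 of 54 neighbours, beside 1257 of 22065 genes in all. With 1 library left out, the call of Prr33 held in 8 of 8 fits and those of 6 others in 1 to 4. The call of Tubb1 also held in 8 of 8, but each of those fits used the same filter.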

How the data were processed

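Counts per gene of 8 mouse HSC libraries, 4 MitolΔ/Δ and 4 control, were used as the authors deposited them. Per the paper's methods and the submitters' processing notes, single-end reads of 75 bases were aligned to mm39 with STAR (version 2.7.10a), alignment files were merged with SAMtools (version 1.10), and reads were counted per gene with Subread (version 2.0.0). Annotation, strand setting and treatment of reads on overlapping genes are not given in the sources used here. The table holds 23094 rows with at least 11 counts each over the libraries. Of these, 1029 name no gene, with 0.335% to 0.467% of the counts of each library, and were removed before normalization.

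Libraries were grouped by genotype label and the whole table was fitted. Groups were compared with edgeR (version 4.0.16, in R version 4.3.3), by its quasi-likelihood F-test after TMM normalization, its default filter on low counts and Benjamini-Hochberg adjustment over 16444 genes, at an adjusted p of 0.05. Normalized counts are counts over DESeq2 (version 1.42.0) size factors, and levels per kb divide them by the union of exons in GENCODE mouse release 39 (GRCm39). For single members an exact permutation test (2-sided, 70 arrangements of the libraries) was added. Alternatives were other size factors, no filter, a mean count of at least 20, DESeq2, limma-voom (limma version 3.58.1), the replicate number as a block, and each library left out. The text names the 10 members, list genes past the threshold or, where under 3 were, those with the lowest p up to 3, Igf1, Igf1r, Insr, neighbours past the threshold, and the 3 genes most like H19 and Igf2r. Airn, Copg2, Gnasas1, Zfp57, Trim28, Dlk1, Marchf5 and the cell markers named were added after their values were seen, as were the promoter windows and motifs. A few list genes that this rule names are not reported here. The members and gene lists were chosen with earlier results of these data known.

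On simulated counts with 200 changed genes of 16536, edgeR recovered 66.0% of those with a log2 fold change of 1 and 100% of those with 2, with 2.92% false calls. DESeq2 made 7.94% false calls. The changes were placed in well-counted genes only, with a spread set by a formula. The recovery therefore need not hold for members with low or variable counts. Library totals of 7214935 to 12398138 counts and 100 cells per library bound the precision. The edgeR intervals rest on the spread between libraries, and only the interval of the Igf2 ratio covers counting error alone.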

Additional observations from a re-analysis of the deposited data

Results flagged for a closer look

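In 74 groups of 4 libraries, the library farthest from the others was compared with the group's range (Dixon's 95% critical value for 4 values), and 9 stood apart. Chance alone marks about 1 in 20 groups. Among the members these were the H19 normalized count of 129 in MitolΔ/Δ library 2, and the Igf2 normalized count of 2.08 in the same library, where the other MitolΔ/Δ libraries were at 0. The H19 fold change moves with this library as given above, and Igf2 rests on 2 counts. With the other MitolΔ/Δ libraries at 0, any Igf2 count above 0 would have been marked, so that mark was fixed in advance.

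Outside the members, control library 4 stood apart in Igf2bp2 (394 normalized counts, the lowest control), Cbx5 (3023, the lowest control) and Tnnt3 (46.7, the highest control). MitolΔ/Δ library 4 stood apart in Igf1 (124) and Igf1r (5989), above the other MitolΔ/Δ libraries in both. MitolΔ/Δ library 3 stood apart in Gng12 (399), above the others, and control library 1 in Utrn (5003).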

How the results depend on the processing

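The sign of the 8 tested members was kept in all 112 values over the alternatives, although Gnas was at -0.00044 without control library 3. Of these, 2 crossed the threshold, Igf2r without control library 1 (-0.80) and Impact without MitolΔ/Δ library 4 (-0.37), so 0 to 1 members were called when 1 library was left out. Over all genes, DESeq2 called 2315 beside 1386, and leaving out 1 library gave 359 (without control library 2) to 2501 (without MitolΔ/Δ library 4). With 1 library left out, 1 to 7 other imprinted, 0 to 4 IGF and insulin, 1 to 4 Gs, 0 to 11 imprint upkeep and 2 to 12 neighbouring genes were called. IGF and insulin genes numbered 1 with other size factors, 1 without the filter, 5 by DESeq2 and 1 by limma-voom. Gs genes numbered 1 without the filter and 4 by DESeq2, and imprint upkeep genes 8 by DESeq2 and 3 by limma-voom. With the replicate number as a block, 0 members, 6 other imprinted genes and 1652 genes in all were called, and 4 of the 5 other imprinted genes were shared with the fit without it. Deviations of same-numbered libraries had correlations of 0.078, -0.067, 0.046 and 0.064 for numbers 1 to 4. The highest with a control library of another number were 0.0035, 0.091, -0.0014 and 0.090. All were weak, and whether the numbers pair the libraries was not tested. Depth limits Igf2 and Plagl1, at 15 and 70 counts in all. DESeq2 gave no adjusted p for either.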
